A study of Mus musculus with 9 samples.

Results

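Liver RNA of mice that had received extracellular vesicles (EVs) of a breast cancer line was compared with liver RNA of mice that had received EVs of a non-tumorigenic breast line. The mice were of the NSG strain, which lacks T, B and NK cells, and their genotype is labelled WT. They were injected in the tail vein for 5 weeks. In 3 libraries the EVs came from MDA-MB-231 cells (human, triple-negative breast cancer), and in 3 from MCF-10A cells (human breast epithelium, non-tumorigenic). Another 3 libraries, after injections of phosphate-buffered saline (PBS) alone, give the background and enter no test here. Every EV effect in such mice is measured in a host without lymphocytes, and each EV type comes from a single cell line. The comparison covers 12697 genes of the 61473 features in the deposited table. Of these features 55414 carry Ensembl identifiers, 20171 of which were above 0 in at least 1 library of each EV group. Those were rescaled to sum to 1000000 in each library, and the 12697 with a mean of at least 1 over the 6 libraries were tested. All values below are these rescaled values, in TPM, a unit of transcript abundance per length that sums to the same total in every library.

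EVs are membrane-bound particles that cells release and that carry proteins, lipids and RNAs such as microRNAs. Vesicles that enter the blood are taken up largely in the liver, by Kupffer cells (its resident macrophages), by sinusoidal endothelium and by hepatocytes. From its title, the study asked about cholesterol balance in the host and about miR-9-5p from cancer cells. Hepatocytes make cholesterol, take it up as lipoproteins and remove it as bile acids. Sterol sensing works through Scap, which escorts the SREBP transcription factors out of the endoplasmic reticulum, and through Insig1 and Insig2, which hold Scap back when sterols are plentiful.

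Libraries differed in ways that bear on every value. All 6059 loci that the authors assembled from reads are listed at 0 in each MCF-10A EV library, where deposited TPM sum to 979351, 946777 and 934986. Such loci held 1.26%, 1.21% and 5.70% of TPM in MDA-MB-231 EV 1 to 3. The abundant mitochondrial transcript mt-Co2 is also listed at 0 in all 3 MCF-10A EV libraries. A difference in how the 2 groups were quantified therefore cannot be told apart from a difference between the EVs, and a gene listed at 0 is described only as that. MCF-10A EV 1 stood out by acute phase and neutrophil genes, and MDA-MB-231 EV 3 by its assembled loci and by 12.4% of TPM in mitochondrially encoded genes, against 5.02% to 9.36% in the other 5 EV libraries. The sources do not say that each library came from a separate mouse, so a p-value here measures no more than the spread among libraries, which may be technical. Read depth is unknown, since TPM keep none.

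Few genes separated the EV groups beyond the spread between libraries. With limma on log2(TPM + 1), 1 of 12697 genes (0.00788%) had an adjusted p under 0.05, and 338 had an unadjusted p under 0.05, 234 of them higher after MDA-MB-231 EVs. Those 338 are a smaller share of the 12697 than the 0.05 expected if no gene differed. The 3 libraries of one group lay wholly above those of the other for 775 genes (6.10%). Random labels of 3 against 3 would give a larger share, 0.1. Of these, 514 (4.05% of the genes tested) were higher after MDA-MB-231 EVs and 261 (2.06%) lower. A log2 difference of at least 2 was reached by 46 of the 514 and 19 of the 261. MCF-10A EV 1 and MDA-MB-231 EV 3 stood apart and were left out together only after the data had been seen. In that fit 56 of 11901 genes were called higher and 42 lower. Across all genes 63.2% of the log2 differences were above 0, with a median of 0.15. This tilt depends on scaling: it was 48.0% with a median of -0.02 when libraries were given equal medians, and 50.2% with a median of 0.00 after quantile normalization. Gene groups are therefore read against the median of all genes, and ranges of a list's median are those found on leaving out 1 EV library at a time. PBS libraries lay beyond the MCF-10A EV libraries on the MDA-MB-231 EV side for 304 of the 775 genes, and beyond the MDA-MB-231 EV libraries on the MCF-10A EV side for 141. In those 304 and 141 genes PBS libraries could overlap the EV group on whose side they lay. For 14 they lay between the groups without overlap, and for the remaining 316 their range overlapped that of both groups. Since EV values chose these 775 genes, the counts are a description.

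**Figure D1:**
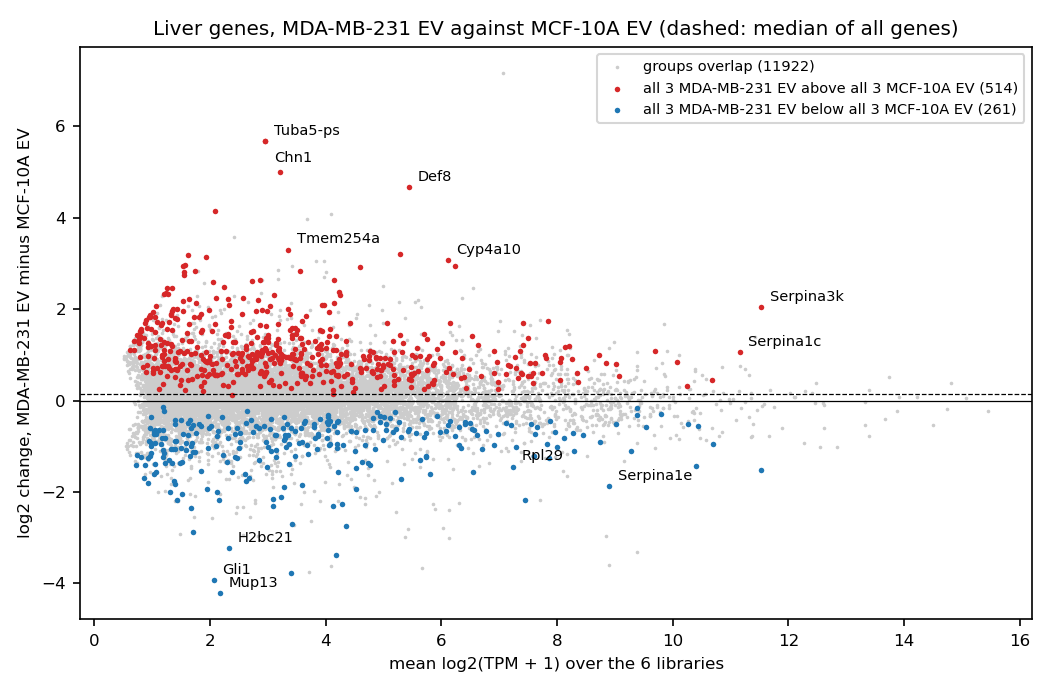
Each point is 1 of 12697 genes, with its mean log2(TPM + 1) over the 6 EV libraries on the x axis and its log2 difference, MDA-MB-231 EV minus MCF-10A EV, on the y axis. Red and blue points are the 514 and 261 genes whose groups do not overlap, grey points are the rest, and the dashed line is the median of 0.15.

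The gene that passed was Tuba5-ps, an alpha-tubulin pseudogene on chromosome 1, which the naming rule leaves out as a pseudogene and which was chosen after its values were seen. It was at 0, 0.0851 and 0.173 TPM in MCF-10A EV 1 to 3 and at 30.5, 64.9 and 81.2 TPM in MDA-MB-231 EV 1 to 3. PBS libraries held 57.4, 83.1 and 64.4 TPM, so MCF-10A EV libraries were the ones near 0. The log2 difference was 5.68 ± 0.50 (SE), with a limma adjusted p of 0.0114. Its log2 difference lay between 5.33 and 8.31 in every other setting that kept the gene, but the call depended on the libraries used. It passed without MCF-10A EV 3, MDA-MB-231 EV 1 or MDA-MB-231 EV 3 (limma adjusted p 0.0412, 0.0353 and 0.0308). No gene passed without MCF-10A EV 1 or without MCF-10A EV 2, where the smallest adjusted p were 0.144 and 0.0660, both for Tuba5-ps. Fits that leave out a library have fewer libraries to test. With the replicate number as a block the adjusted p of Tuba5-ps was 0.0559 and 0 genes passed. Without MDA-MB-231 EV 2 the single call was Gm20547, a predicted gene, in place of Tuba5-ps.

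Gli1, the transcription factor at the end of the hedgehog pathway, came closest among genes that were lower. It lies at chr10:127329882-127341974 in GRCm38 and was at 14.1, 19.8 and 13 TPM after MCF-10A EVs but at 0.112, 0 and 0.129 TPM after MDA-MB-231 EVs. The groups did not overlap, and PBS libraries, at 0.197, 0.104 and 0.177 TPM, lay with the MDA-MB-231 EV libraries. The log2 difference was -3.93 ± 0.45 (SE) with a limma adjusted p of 0.0533. It passed with a pseudocount of 0.5 (adjusted p 0.0353) and with equal medians (0.0452). It did not pass with the replicate block (0.193), when any 1 library was left out (0.0880 to 0.471), without a filter on the mean (0.641) or with a mean of at least 5 (0.710). The EV groups overlapped for all 10 other tested genes of the pathway. Ptch1, the hedgehog receptor and a usual target of Gli1, was at 1.28, 1.42 and 1.94 TPM after MCF-10A EVs and 4.59, 1.01 and 1.03 TPM after MDA-MB-231 EVs. Smo, which passes the signal on, gave a log2 difference of -0.44, and Hhip, an inhibitor that hedgehog signals induce, gave 0.35. Of 11 pathway members tested, Gli1 included, 9 were above 0 and 2 below, 0 passed, and the median was 0.28, running from 0.07 (MDA-MB-231 EV 3 left out) to 0.52 (MDA-MB-231 EV 2 left out).

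A gene next to Gli1 lay in the opposite direction. Inhbe, which encodes a hepatocyte-secreted subunit of activin E, lies 6883 bases away on the same strand at chr10:127348857-127354411. It was at 1.94, 2.56 and 2.44 TPM after MCF-10A EVs and at 29.8, 16.7 and 5.52 TPM after MDA-MB-231 EVs. PBS libraries held 17, 19.2 and 17.1 TPM, so here too the MCF-10A EV libraries stood apart. Its log2 difference was 2.21 ± 0.60 (SE), and it did not pass. Among the 24 genes of the naming rule and Tuba5-ps, 17 tested neighbours lay within 10000 bases, and the EV groups overlapped for 15 of them. Zfp512b, beside Prpf6, was without overlap in the same direction as its neighbour. Inhbe was the 1 without overlap in the opposite direction. That is 1 of 17, beside 4.05% of all genes higher without overlap.

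The 12 higher and 12 lower genes with the smallest p among those whose EV groups did not overlap had this in common, that the MCF-10A EV libraries were mostly the group away from PBS. PBS lay on the MDA-MB-231 EV side for 20 of the 24, between the groups for 2, on the MCF-10A EV side for 1 and overlapping for 1. Over all 775 genes without overlap, PBS lay on the MDA-MB-231 EV side for 304 and on the MCF-10A EV side for 141. MCF-10A EV libraries are also those with assembled loci and mt-Co2 listed at 0. A difference in how they were quantified cannot be told apart here from a difference between the EVs. None of the 24 passed, with limma adjusted p from 0.0533 to 1.

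Genes higher after MDA-MB-231 EVs had varied roles. Tmem254a, a small membrane protein of unclear function, was at 1.63, 3.14 and 2.16 TPM after MCF-10A EVs, 37.1, 43.3 and 18.6 TPM after MDA-MB-231 EVs and 27.5, 40.8 and 69.5 TPM after PBS. Its log2 difference was 3.30 ± 0.49 (SE) with a limma adjusted p of 0.217, and the EV groups did not overlap. Tm4sf5, a membrane protein related to the tetraspanins, was at 0.0613, 0 and 0 TPM after MCF-10A EVs, 3.82, 8.85 and 15.6 TPM after MDA-MB-231 EVs and 22, 7.58 and 12.9 TPM after PBS. All 3 MCF-10A EV libraries were at or near 0, and the log2 difference was 3.18 ± 0.56 (SE). Chn1, a GTPase-activating protein for Rac best known from neurons, was at 0, 0.0319 and 0.238 TPM after MCF-10A EVs and 12.1, 33.9 and 377 TPM after MDA-MB-231 EVs. The highest of these was MDA-MB-231 EV 3, the PBS libraries held 179, 86.2 and 54.7 TPM, and the log2 difference was 5.68 ± 1.03 (SE). Def8, which takes part in lysosome positioning, was at 9.46, 6.62 and 6.97 TPM after MCF-10A EVs and 92.8, 53.8 and 2057 TPM after MDA-MB-231 EVs. MDA-MB-231 EV 3 was again the extreme, PBS libraries held 503, 406 and 112 TPM, and the log2 difference was 4.68 ± 1.14 (SE).

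Nceh1, a hydrolase that frees cholesterol from its esters, was the 1 of the 24 with a direct part in cholesterol handling. It was at 3.77, 2.38 and 1.73 TPM after MCF-10A EVs, 13.6, 17.7 and 8.28 TPM after MDA-MB-231 EVs and 3.87, 17.3 and 7.95 TPM after PBS. The EV groups did not overlap, all 3 PBS libraries lay above the MCF-10A EV libraries, and the log2 difference was 1.95 ± 0.48 (SE) with a limma adjusted p of 1. The other higher genes were the splicing factor Prpf6 (2.10), the RNA-binding protein Celf2 (2.31), the endosomal sorting protein Snx12 (2.14), the interleukin-11 receptor copy Il11ra2 (3.14) and the zinc finger genes Zfp91 (2.74), Zfp367 (2.61) and Zfp994 (1.82), each as a log2 difference.

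Genes lower after MDA-MB-231 EVs, other than Gli1, were also of varied roles. Mup13, one of the major urinary proteins that carry pheromones, was at 5.62, 47.8 and 21.4 TPM after MCF-10A EVs, 0, 0.142 and 0 TPM after MDA-MB-231 EVs and 1.56, 0.177 and 0 TPM after PBS. H2bc21, a histone H2B gene, was at 6.21, 15.9 and 28.9 TPM after MCF-10A EVs, 1.29, 0.518 and 0.257 TPM after MDA-MB-231 EVs and 1.16, 0.966 and 1.80 TPM after PBS. Both had EV groups that did not overlap, with log2 differences of -4.21 ± 0.70 (SE) and -3.23 ± 0.60 (SE). Nsmaf, an adaptor of the tumour necrosis factor receptor that activates a neutral sphingomyelinase, was at 28.3, 50.8 and 49.4 TPM after MCF-10A EVs and 10.2, 4.31 and 10.8 TPM after MDA-MB-231 EVs (log2 difference -2.26 ± 0.49, SE). Dnai1, an axonemal dynein chain, differed in where PBS lay. It was at 20.1, 13.1 and 21.8 TPM after MCF-10A EVs and 4.53, 4.17 and 0.998 TPM after MDA-MB-231 EVs, and PBS libraries, at 8.58, 21.5 and 17.3 TPM, lay with the former. Its log2 difference was -2.30 ± 0.53 (SE).

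Ighm, the heavy chain of immunoglobulin M, was at 26.2, 43.7 and 24.9 TPM after MCF-10A EVs, 8.92, 16.1 and 6.36 TPM after MDA-MB-231 EVs and 33.6, 15.2 and 19.5 TPM after PBS, in a strain that lacks mature B cells. The remaining lower genes were the alpha-tubulin Tuba1a (-2.10), the ubiquitin ligase Rnf216 (-1.89), the protease inhibitor Serpina1e (-1.87), the kinase subunit Csnk2a1 (-1.47), the ribosomal protein Rpl29 (-1.44) and the redox protein Txn1 (-1.26), each as a log2 difference.

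**Figure D2:**
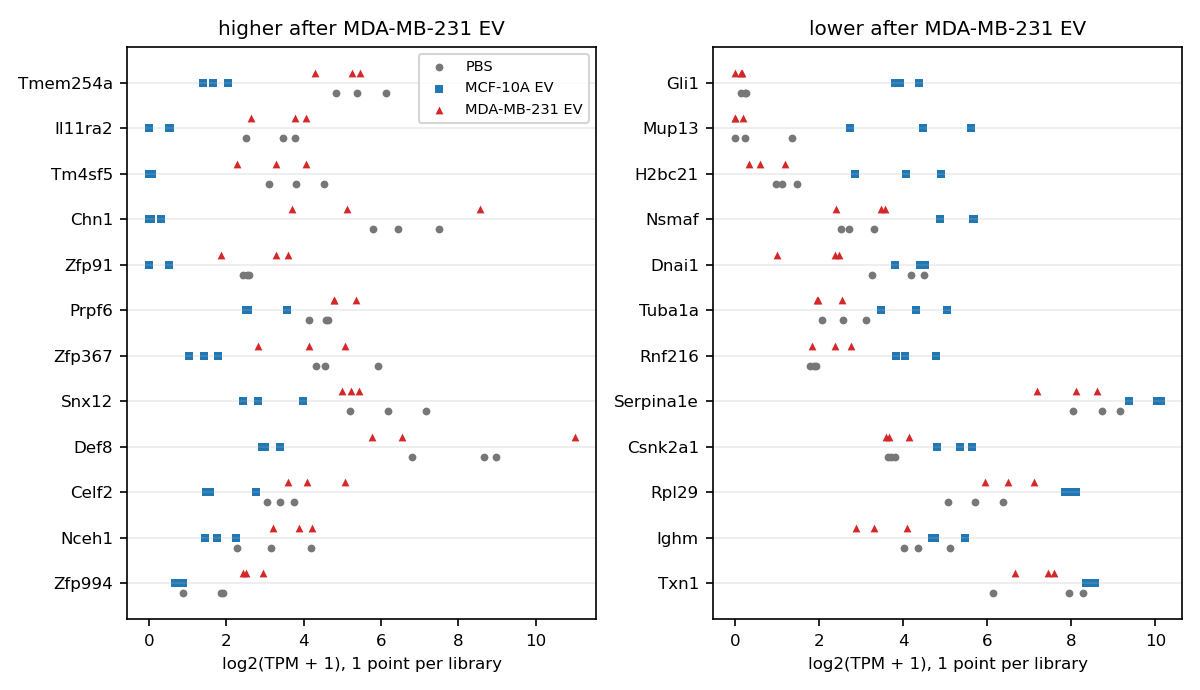
Each point is 1 library, with log2(TPM + 1) on the x axis, for the 12 higher genes (left) and 12 lower genes (right) with the smallest p by limma among genes whose EV groups do not overlap. Blue squares (MCF-10A EV) stand apart from red triangles (MDA-MB-231 EV) and from grey circles (PBS) on the red side for 20 of the 24 genes. Blue squares also stand apart, for Zfp994 by a narrow margin, in the 2 genes where grey circles lie between the EV groups.

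Several of these genes have near-identical copies, whose reads a quantifier has to divide between them. In GENCODE M21 transcripts (GRCm38), 12.1% of the tested genes share over 20% of their 31-base words with another gene. The share was 17.7% among the 775 genes whose groups did not overlap and 42.2% among those of them with a log2 difference of at least 2 in size. It was 51.9% among genes with such a difference whose groups did overlap, and 8 of the 24 named genes shared over 20%. Pairs were counted as copies when they shared at least 20% of the 31-base words of either member, a rule that does not require near-identity. There were 1302 such pairs, and in 28 of them neither member overlapped between groups. Genes such as Gm14410 and Gm6710 recur in several of the 28, so these are not 28 separate cases. Members lay in opposite directions in 14 of the 28 pairs.

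The alpha-1-antitrypsin genes Serpina1c and Serpina1e, which lie on the minus strand of chromosome 12 at chr12:103894926-103904887 and chr12:103946931-103958975 in GRCm38 and encode secreted protease inhibitors of hepatocytes, are such a pair. Serpina1e was at 660.2, 1115 and 1044 TPM after MCF-10A EVs, 145, 391 and 274 TPM after MDA-MB-231 EVs and 263, 425 and 566 TPM after PBS. Serpina1c was at 1429.7, 1696 and 1668 TPM after MCF-10A EVs, 3746, 4436 and 2192 TPM after MDA-MB-231 EVs and 1886, 3026 and 4591 TPM after PBS. The EV groups overlapped for neither gene, Serpina1e being lower (-1.87 ± 0.49, SE) and Serpina1c higher (1.06 ± 0.45, SE) after MDA-MB-231 EVs. Their coding sequences, both 1239 bases long, differ at 44 bases (96.4% identity). Only reads over such differences tell the copies apart.

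Il11ra2, at chr4:42656355-42661893 on the minus strand in GRCm38, is a copy of Il11ra1, the receptor for interleukin-11. All of its 31-base words also occur in Gm13305, a further predicted copy. Il11ra2 was at 0, 0.426 and 0.464 TPM after MCF-10A EVs, 5.25, 12.7 and 15.7 TPM after MDA-MB-231 EVs and 4.68, 12.7 and 10.0 TPM after PBS. Il11ra1 was at 17.4, 36.1 and 47.7 TPM after MCF-10A EVs, 34.3, 29.6 and 34 TPM after MDA-MB-231 EVs and 45.7, 34.9 and 32.8 TPM after PBS, and its EV groups overlapped. The coding sequences are 1296 bases long and differ at 13 bases (99.0% identity). The stretch from coding base 943 to 1062 is shown as an example of how little sequence separates such copies. It is of the coding strand from 5′ to 3′, and the 4 bases that differ between the pair are in capitals.
Il11ra1: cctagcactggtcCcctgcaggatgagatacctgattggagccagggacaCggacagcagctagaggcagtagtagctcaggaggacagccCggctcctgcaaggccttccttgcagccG
Il11ra2: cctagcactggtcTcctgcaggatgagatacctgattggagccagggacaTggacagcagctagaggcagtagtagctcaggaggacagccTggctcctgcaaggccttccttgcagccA

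Tmem254a and its copy Tmem254b have the same 387 coding bases, so in that span no read can be assigned to one of them. Mup13 and Mup8 differ at 8 of 705 coding bases (98.9% identity). How far the division of reads between copies set these values was not tested.

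Genes of cholesterol control, the subject of the study's title, had no member that passed. Insig1 was at 97.2, 79 and 47.3 TPM after MCF-10A EVs and 190.2, 25.4 and 64.6 TPM after MDA-MB-231 EVs. Insig2 was at 84.9, 57.5 and 50.4 and 99.6, 98.5 and 59.9 TPM, and Scap at 19.4, 27.5 and 17.7 and 33.3, 21.8 and 32.3 TPM. The groups overlapped for all 3 genes, and MDA-MB-231 EV 1 held the highest value of each. The log2 differences were -0.06 ± 0.69 (SE), 0.41 ± 0.43 (SE) and 0.42 ± 0.42 (SE). The SREBP genes gave -0.21 ± 0.62 (SE) for Srebf1, which favours fatty acid synthesis, and 0.38 ± 0.45 (SE) for Srebf2, which favours cholesterol synthesis. All 11 sterol genes of the naming rule had overlapping groups and a limma adjusted p of 1.

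Mbtps1, the Golgi protease that makes the first cleavage of SREBP, was the sterol-sensing gene whose groups did not overlap. It was at 43.8, 38.5 and 42.4 TPM after MCF-10A EVs, 26.6, 8.41 and 16.5 TPM after MDA-MB-231 EVs and 13, 8.52 and 9.15 TPM after PBS. The MCF-10A EV libraries were the highest of the 9, and the log2 difference was -1.36 ± 0.49 (SE) with a limma adjusted p of 1. Mbtps1 was 1 of 19 sterol sensing and uptake genes tested, beside 2.06% of all genes lower without overlap. Mbtps2, which makes the other cleavage, was at 4.16, 2.49 and 3.23 TPM after MCF-10A EVs and 4.37, 2.65 and 7.10 TPM after MDA-MB-231 EVs, with overlap.

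SREBP targets lay on both sides of the median of all genes. Hmgcs1, which makes HMG-CoA, was at 184, 214 and 204 TPM after MCF-10A EVs and 98.2, 55.8 and 238 TPM after MDA-MB-231 EVs, with PBS at 434, 87.4 and 271 TPM. Its lowest EV values were MDA-MB-231 EV 1 and 2, its highest MDA-MB-231 EV 3, and the log2 difference was -0.86 ± 0.55 (SE). Sqle, which makes squalene epoxide, gave -0.16 ± 0.55 (SE), with overlap. Of 21 cholesterol synthesis genes, 11 were above 0 and 10 below, with a median of 0.06 that ran from -0.25 (MDA-MB-231 EV 1 left out) to 0.30 (MCF-10A EV 1 left out). Pmvk, a kinase of the mevalonate pathway, was the 1 whose groups did not overlap, at 47.8, 38 and 22.8 TPM after MCF-10A EVs and 88.1, 74.5 and 49.2 TPM after MDA-MB-231 EVs. That is 1 of 21, beside 4.05% of all genes higher without overlap. The median of 19 sterol sensing and uptake genes was 0.31 and ran from -0.07 (MDA-MB-231 EV 1 left out) to 0.54 (MCF-10A EV 1 left out). No member of either list passed.

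Genes of cholesterol removal follow. The exporter Abca1 gave a log2 difference of 0.13 ± 0.59 (SE) and Cyp7a1, which sets the rate of the classical route to bile acids, -0.11 ± 0.67 (SE). Cyp27a1, which starts the alternative route to bile acids in mitochondria, was at 169, 136 and 161 TPM after MCF-10A EVs, 255, 269 and 437 TPM after MDA-MB-231 EVs and 266, 178 and 121 TPM after PBS. Its EV groups did not overlap, and the log2 difference was 1.00 ± 0.41 (SE). Lcat, which esterifies cholesterol on plasma lipoproteins, was at 344, 223 and 288 TPM after MCF-10A EVs, 482, 458 and 449.6 TPM after MDA-MB-231 EVs and 273, 255.6 and 329 TPM after PBS. All 3 MDA-MB-231 EV libraries were above the other 6, with a log2 difference of 0.72 ± 0.40 (SE) and a limma adjusted p of 1. Of 17 bile acid genes 14 were above 0 (median 0.43), and of 14 export genes 10 were (median 0.22). The former median ran from 0.02 (MDA-MB-231 EV 1 left out) to 0.52 (MDA-MB-231 EV 3 left out), and the latter from 0.16 (MDA-MB-231 EV 3 left out) to 0.42 (MCF-10A EV 1 left out). No member of either list passed.

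**Figure D3:**
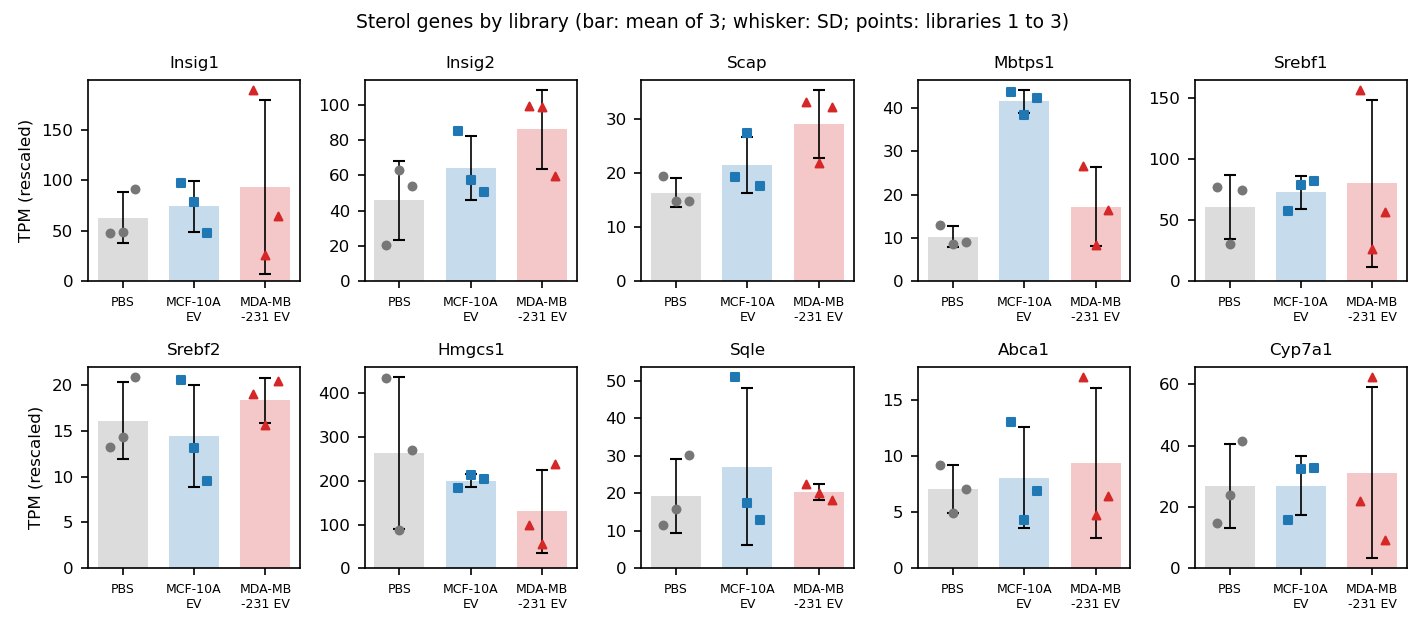
Rescaled TPM (y axis, from 0) of 10 sterol genes in each group, with points for libraries 1 to 3 from left to right, bars for the mean and whiskers for the SD (n = 3). Mbtps1 is the panel where all MCF-10A EV points lie above all others, and in the other 9 panels the EV groups overlap.

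Fatty acid oxidation genes, most of them targets of the nuclear receptor PPARA, had 1 sign throughout. All 28 tested members were above 0, 24 of them above the median of all genes, and 24 were above 0 with equal medians or after quantile normalization. The count above 0 was lower when libraries were left out singly, down to 18 of 28 without MDA-MB-231 EV 1. The list median was 0.58, and 0 members passed. Cyp4a10, a fatty acid omega-hydroxylase, was at 3.91, 59.4 and 45.1 TPM after MCF-10A EVs, 289, 167 and 169 TPM after MDA-MB-231 EVs and 133, 204 and 209.6 TPM after PBS. Hadha, a subunit of the mitochondrial trifunctional protein, was at 48.7, 31.1 and 37.2 TPM after MCF-10A EVs, 226, 147 and 60.7 TPM after MDA-MB-231 EVs and 61.1, 121 and 82.6 TPM after PBS. Acot3, a peroxisomal acyl-CoA thioesterase, was at 1.13, 13.1 and 10.8 TPM after MCF-10A EVs, 142, 33.5 and 16 TPM after MDA-MB-231 EVs and 5.77, 18.2 and 7.03 TPM after PBS. The EV groups overlapped for none of these 3, with log2 differences of 3.08 ± 0.86 (SE), 1.69 ± 0.54 (SE) and 2.63 ± 0.91 (SE). These were 3 of 28, beside 4.05% of all genes higher without overlap.

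The other 25 members of that list had overlapping groups, and MDA-MB-231 EV 1 was mostly the highest library. It was the highest of the 6 EV libraries for 22 of the 28 genes, and MDA-MB-231 EV 3 was the lowest of the 6 for 15. Ppara itself was at 12.1, 11.6 and 9.79 TPM after MCF-10A EVs and 82.4, 11.9 and 84.9 TPM after MDA-MB-231 EVs, and MDA-MB-231 EV 2 lay within the MCF-10A EV range. Cpt1a, the gate of mitochondrial fatty acid entry, was at 50.8, 24.2 and 18.3 and 150.5, 47.5 and 16.6 TPM. Without MDA-MB-231 EV 1 the list median was 0.16 beside 0.04 for all genes. Without MDA-MB-231 EV 3 it was 1.17 beside 0.04.

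Other hepatocyte programmes stood on the same side. Of 29 xenobiotic metabolism genes 25 were above 0 (median 0.69), and with 1 library left out the median ran from 0.48 to 0.86. Cyp2b10, the usual target of the receptor CAR, was at 3.67, 6.08 and 16 TPM after MCF-10A EVs, 29.5, 73.9 and 33.4 TPM after MDA-MB-231 EVs and 53.2, 20.3 and 12.2 TPM after PBS, with EV groups that did not overlap and a log2 difference of 2.38 ± 0.60 (SE). Ahr, the receptor for dioxin-like compounds, was at 5.71, 3.66 and 6.79 TPM after MCF-10A EVs, 17.9, 7.77 and 13 TPM after MDA-MB-231 EVs and 16.2, 12.8 and 10.6 TPM after PBS, also without overlap (1.08 ± 0.48, SE). Of 25 genes of gluconeogenesis and glycolysis 20 were above 0 (median 0.48, or 0.20 without MCF-10A EV 2), among them Pcx, which makes oxaloacetate from pyruvate, at 78.2, 43.8 and 49.7 TPM after MCF-10A EVs, 237, 163 and 86.9 TPM after MDA-MB-231 EVs and 90.3, 99.5 and 89.2 TPM after PBS. Of 25 female-biased liver genes 22 were above 0 (median 0.74). Without MCF-10A EV 1 that median was 0.28, beside 0.30 for all genes. No member of these lists passed.

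Serpina3k, a serine protease inhibitor secreted by hepatocytes, was the 1 of 26 acute phase genes higher without overlap, beside 4.05% of all genes. It was at 3559, 1032 and 843 TPM after MCF-10A EVs, 6135, 5757 and 6238 TPM after MDA-MB-231 EVs and 4526, 4440.0 and 3871 TPM after PBS. MCF-10A EV 2 and 3 were the lowest of the 9 libraries, and the log2 difference was 2.05 ± 0.59 (SE) with a limma adjusted p of 1. It shares 24.2% of its 31-base words with other genes, its nearest copy being Serpina3m.

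Acute phase proteins, which the liver secretes in inflammation, lay mostly on the other side. Of 26 members 20 were below 0 and 6 above, with a median of -0.47, and 0 passed. Orm1, an alpha-1-acid glycoprotein, was at 11706, 2681 and 3982 TPM after MCF-10A EVs, 1364, 2658 and 1436 TPM after MDA-MB-231 EVs and 951, 2167 and 2005 TPM after PBS, with EV groups that did not overlap and a log2 difference of -1.53 ± 0.61 (SE). Saa1, serum amyloid A, was at 29209.8, 247 and 1308 TPM after MCF-10A EVs, 93.8, 977 and 101 TPM after MDA-MB-231 EVs and 21.8, 524 and 174 TPM after PBS. MCF-10A EV 1 far exceeded every other library for Saa1 and was the highest EV library for 22 of the 26 genes. Without MCF-10A EV 1 the list median was -0.06 with 14 of 26 below 0, and without both MCF-10A EV 1 and MDA-MB-231 EV 3 it was 0.36 with 10 of 26 below 0.

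Markers of neutrophils were high in the same library as the acute phase list, and their list median was -2.21, or -0.07 without MCF-10A EV 1. The summed TPM of the 14 neutrophil markers was 9632 in MCF-10A EV 1, 105 and 506 in the other libraries of that group, and 84.1, 256.3 and 344 in MDA-MB-231 EV 1 to 3. The calcium-binding protein S100a8 was at 1551, 10.3 and 83 TPM after MCF-10A EVs and 4.90, 8.36 and 76.5 TPM after MDA-MB-231 EVs. The part of these cells in the acute phase values was not tested. In bulk tissue, fewer cells of a type and less RNA per cell cannot be told apart.

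Interferon response genes were below the median of all genes, 17 of 24 being below 0 (median -0.23). That median ran from -0.49 (MDA-MB-231 EV 1 left out) to -0.03 (MDA-MB-231 EV 2 left out), and was 0.09, beside 0.20 for all genes, without both MCF-10A EV 1 and MDA-MB-231 EV 3. Oas1a, an antiviral oligoadenylate synthetase, was at 11.6, 11.6 and 12.1 TPM after MCF-10A EVs, 7.01, 6.16 and 2.88 TPM after MDA-MB-231 EVs and 6.17, 5.74 and 3.42 TPM after PBS. Isg15, a ubiquitin-like modifier, was at 49, 39.9 and 35 TPM after MCF-10A EVs, 26.6, 25.8 and 9.94 TPM after MDA-MB-231 EVs and 20.04, 27.1 and 53.6 TPM after PBS. The EV groups overlapped for neither gene, with log2 differences of -1.08 ± 0.46 (SE) and -1.06 ± 0.49 (SE). Ifit1, which binds viral RNA, was lower without overlap (-0.81), whereas Irf7, a transcription factor of the same response, was higher without overlap (0.39). The median of 18 NF-kB target cytokines and chemokines was -0.45, but 0.62 without MCF-10A EV 1, and that of 15 heat shock genes -0.40, the latter running from -0.68 (MDA-MB-231 EV 2 left out) to -0.09 (MDA-MB-231 EV 3 left out). No member of these 3 lists passed.

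Major urinary proteins gave the lowest median among the hepatocyte lists, -1.40, with 15 of 17 below 0. It ran from -3.04 (MDA-MB-231 EV 2 left out) to -0.43 (MDA-MB-231 EV 3 left out). Mup9, one of the members with a near-identical copy, was at 35.6, 461 and 143 TPM after MCF-10A EVs and 15.8, 2081 and 11.3 TPM after MDA-MB-231 EVs, and MDA-MB-231 EV 2 was the highest of the 6 for 11 of the 17 genes. Mup13, described above, was the 1 of 17 members whose groups did not overlap, beside 2.06% of all genes lower without overlap.

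**Figure D4:**
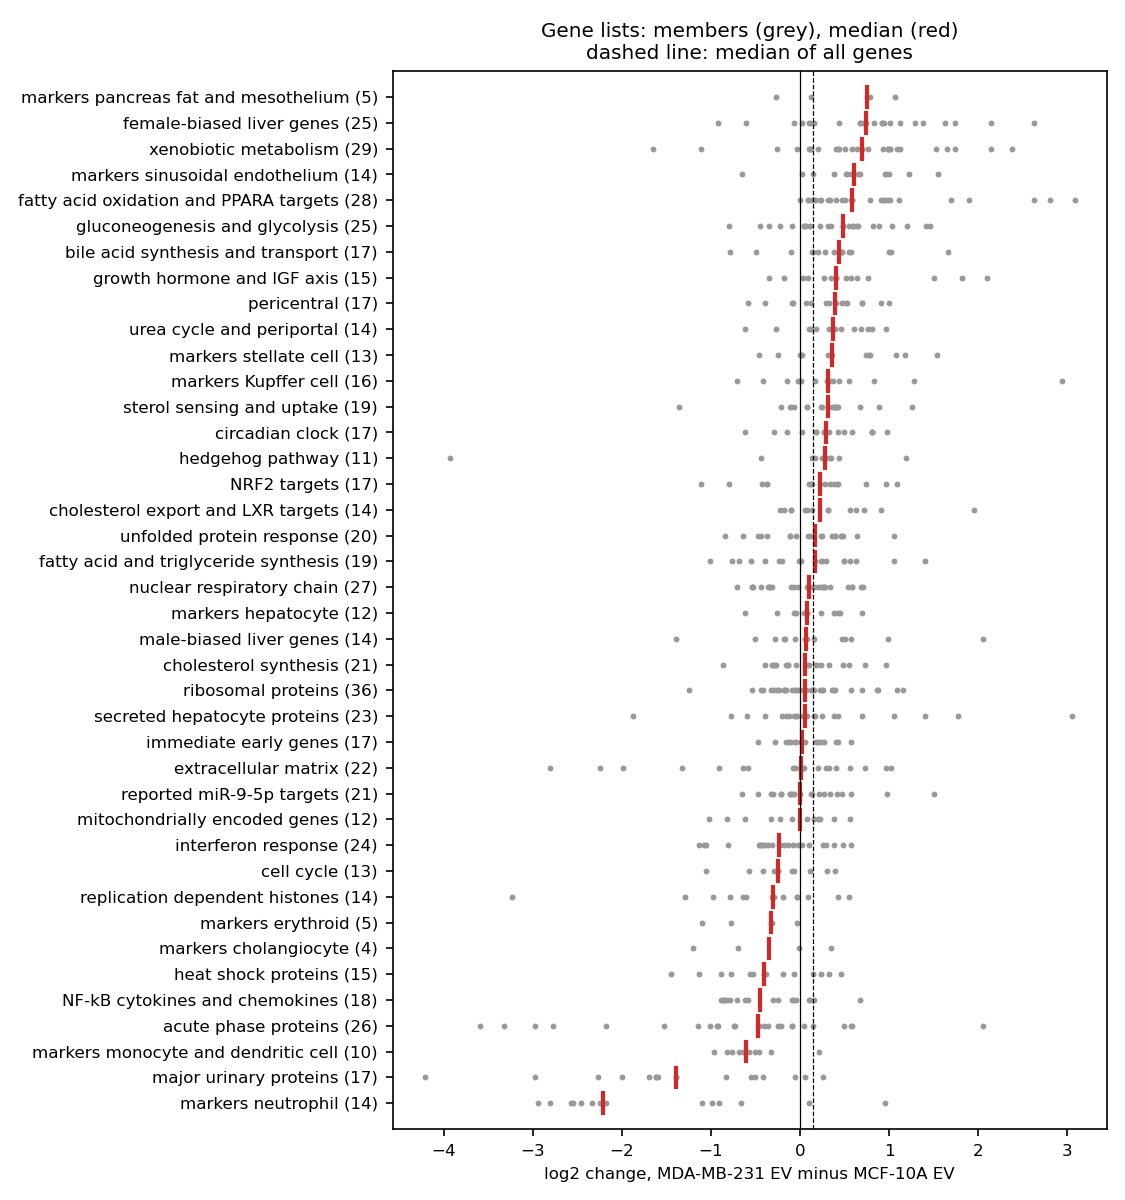
Grey points are the tested members of each gene list (number in brackets) at their log2 difference, MDA-MB-231 EV minus MCF-10A EV (x axis), red bars are list medians and the dashed line is the median of all genes, 0.15. Medians run from -2.21 for neutrophil markers to 0.75 for markers of pancreas, fat and mesothelium, and 0 members of any list passed the test.

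Markers of the main liver cell types were detected in all 9 libraries. Hepatocyte markers, 12 in number, summed to between 41932 and 113044 TPM and lay on both sides of the median of all genes, with a list median of 0.08 that ran from -0.08 (MDA-MB-231 EV 1 left out) to 0.44 (MDA-MB-231 EV 3 left out). Albumin (Alb) was at 23359, 34514 and 20321 TPM after MCF-10A EVs, 66968, 38209.9 and 14069 TPM after MDA-MB-231 EVs and 16477, 26680.5 and 55927 TPM after PBS, with overlap.

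Stellate cells, the pericytes that store vitamin A, had 3 of 13 markers higher without overlap between EV groups, beside the 4.05% of all genes given above. Rgs5, a regulator of G-protein signalling in pericytes, was at 6.73, 10.5 and 7.20 TPM after MCF-10A EVs, 29.4, 19.6 and 27 TPM after MDA-MB-231 EVs and 28.8, 38 and 27.5 TPM after PBS. MCF-10A EV libraries were the lowest 3 of the 9, and the log2 difference was 1.53 ± 0.43 (SE) with a limma adjusted p of 1. The others were the collectin Colec11 (1.08) and the transcription factor Hand2 (0.77), each as a log2 difference. The defining marker Lrat, which esterifies vitamin A, was at 2.22, 1.34 and 1.41 TPM after MCF-10A EVs and 5.55, 1.62 and 1.05 TPM after MDA-MB-231 EVs, with overlap. The summed TPM of the 13 markers overlapped too, and their median log2 difference was 0.36, running from 0.19 (MDA-MB-231 EV 3 left out) to 0.55 (MDA-MB-231 EV 2 left out).

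Kupffer cell markers had 2 of 16 higher without overlap, beside 4.05% of all genes. Their median, 0.31, changed side with single libraries, running from -0.11 (MCF-10A EV 2 left out) to 0.85 (MCF-10A EV 1 left out). Folr2, a folate receptor of resident macrophages, was at 4.50, 9.16 and 9.07 TPM after MCF-10A EVs, 22.5, 20.5 and 14.9 TPM after MDA-MB-231 EVs and 4.63, 19.4 and 10.2 TPM after PBS. Clec4f, a lectin confined to Kupffer cells, was at 0.623, 103 and 119 TPM after MCF-10A EVs, 159, 214 and 261 TPM after MDA-MB-231 EVs and 176, 207 and 123 TPM after PBS. MCF-10A EV 1 was far below the rest. The log2 difference of Clec4f was 2.94 ± 1.39 (SE), and 0.91 without that library. Complement genes of macrophages, C1qa, C1qb and C1qc, gave log2 differences of 0.01, -0.01 and -0.15, and summed Kupffer markers were highest in MCF-10A EV 1, at 2460 TPM against 457 to 1089 TPM in the other 5 EV libraries.

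Sinusoidal endothelium had 13 of 14 markers above 0 (median 0.61). MDA-MB-231 EV 1 was the highest EV library for 9 of the 14, and the median was 0.30 without it. Clec4g, a lectin of these cells, was at 20.6, 39.4 and 35.8 TPM after MCF-10A EVs, 89.9, 54.6 and 49.4 TPM after MDA-MB-231 EVs and 47.8, 90.1 and 35.6 TPM after PBS, higher without overlap (1.00 ± 0.46, SE). Pecam1, an adhesion molecule of endothelium in general, was at 35.3, 15.2 and 13.7 TPM after MCF-10A EVs, 12.7, 12.7 and 11 TPM after MDA-MB-231 EVs and 19.5, 22.7 and 12.7 TPM after PBS, lower without overlap (-0.65 ± 0.48, SE). Stab2, a scavenger receptor that clears hyaluronan, was at 14.9, 8.98 and 14.9 TPM after MCF-10A EVs and 42.5, 12.2 and 54.7 TPM after MDA-MB-231 EVs, with overlap.

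Markers of cells that are few in liver lay on both sides. Of 5 markers of pancreas, fat and mesothelium 4 were above 0 (median 0.75, or 0.16 without MDA-MB-231 EV 3). The cholangiocyte marker Spp1, osteopontin, which immune cells also make, was at 128, 61.3 and 66.1 TPM after MCF-10A EVs, 40.3, 42.8 and 23.1 TPM after MDA-MB-231 EVs and 20.7, 118 and 57.8 TPM after PBS. Its EV groups did not overlap, and the log2 difference was -1.21 ± 0.47 (SE). Summed cholangiocyte markers were 134, 76.0 and 77.9 TPM after MCF-10A EVs and 48.3, 49.2 and 43.5 TPM after MDA-MB-231 EVs, and Spp1 made up most of each sum. The 2 lymphocyte genes tested of 12 listed, Ighm and Nkg7, summed to 35, 43.7 and 25.7 TPM and to 8.92, 16.2 and 6.36 TPM. The log2 differences of the 2 genes were -1.55 and -1.32, with a median of -1.44. For the cholangiocyte and lymphocyte sums an exact permutation test gave a two-sided p of 0.1, the smallest that 3 against 3 allows. Each of these sums was mostly 1 gene whose EV groups did not overlap, so the test adds nothing to that. The same exact permutation test gave a p of 0.2 or more for the sum of every other cell type. Of 10 monocyte and dendritic cell markers 9 were below 0 (median -0.60). MCF-10A EV 1 was the highest EV library for 9 of these 10 genes, and the median was 0.04 without it. No marker of any cell type passed.

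**Figure D5:**
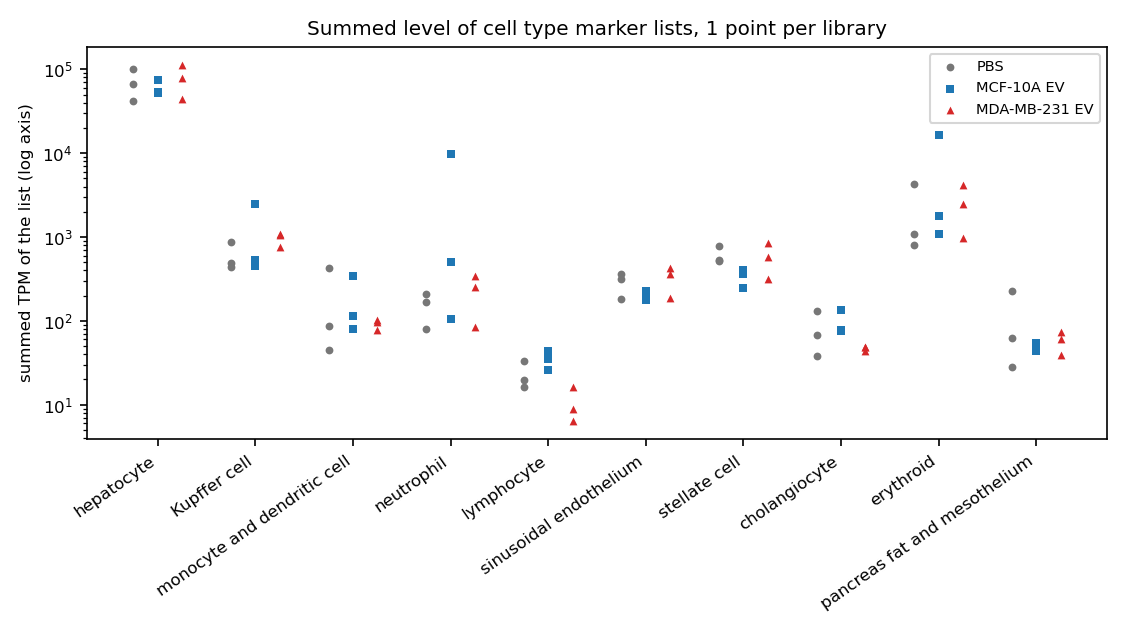
Summed TPM of the tested markers of each cell type (log axis) in each library, with grey circles for PBS, blue squares for MCF-10A EV and red triangles for MDA-MB-231 EV. Neutrophil markers in MCF-10A EV 1 reach 9632, against 84.1 to 506 in the other 5 EV libraries, and the EV groups are apart for lymphocytes and cholangiocytes.

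Targets of miR-9-5p, the microRNA that the series title names, lay on both sides of 0 and of the median of all genes. MicroRNAs pair with their targets through the seed, bases 2 to 8, shown in capitals in the mature mouse sequence (RefSeq, GRCm38.p6), which 3 genes encode, among them Mir9-1 at chr3:88215613-88215635 on the plus strand. The level of miR-9-5p itself is not among the values analysed here.
miR-9-5p: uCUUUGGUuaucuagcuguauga

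Of 21 tested genes reported as its targets, 10 were above 0 and 11 below, with a median of 0.00, and 8 of 21 were above the median of all genes, 0.15. The list median ran from -0.30 (MDA-MB-231 EV 1 left out) to 0.26 (MCF-10A EV 1 left out), and was below that of all genes with each library left out. In a fit that weights the libraries (array weights) it was above, at 0.262 beside 0.247 for all genes. Insig1, Insig2 and Srebf1, given above, are on this list. The 1 member whose EV groups did not overlap was Onecut1, a hepatocyte transcription factor, and it was higher after MDA-MB-231 EVs. It was at 0.480, 0.0532 and 0.184 TPM after MCF-10A EVs, 3.07, 3.87 and 1.12 TPM after MDA-MB-231 EVs and 1.07, 0.135 and 0.604 TPM after PBS, with a log2 difference of 1.5 ± 0.52 (SE). Onecut1 was 1 of 21, beside 4.05% of all genes higher without overlap. The deacetylase Sirt1 gave -0.22 ± 0.48 (SE) and the translation-linked RNA-binding protein Elavl1 -0.47 ± 0.51 (SE), both with overlap. No member passed.

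The remaining lists are given by their counts or medians, beside 0.15 for all genes. The urea cycle list had 12 of 14 members above 0 (median 0.37), the growth hormone and IGF axis 13 of 15 (0.41) and the circadian clock 14 of 17 (0.30). Pericentral genes, male-biased genes, fatty acid and triglyceride synthesis and NRF2 targets had medians of 0.39, 0.07, 0.17 and 0.22. The median was 0.17 for the unfolded protein response, 0.02 for immediate early genes, 0.10 for the nuclear respiratory chain and 0.06 for ribosomal proteins. It was 0.01 for extracellular matrix, 0.05 for secreted hepatocyte proteins, -0.01 for mitochondrially encoded genes and -0.25 for the cell cycle. Erythroid markers gave -0.33, cholangiocyte markers -0.35 and replication-dependent histones -0.30. Several of these medians turned on single libraries. Leaving out 1 library moved them from 0.20 (MCF-10A EV 2 left out) to 0.51 (MCF-10A EV 1 left out) for the urea cycle, from 0.30 (MDA-MB-231 EV 1 left out) to 0.59 (MCF-10A EV 3 left out) for the growth hormone axis and from 0.06 (MDA-MB-231 EV 1 left out) to 0.76 (MDA-MB-231 EV 2 left out) for the clock. The ranges were 0.10 (MDA-MB-231 EV 1 left out) to 0.48 (MCF-10A EV 2 left out) for pericentral genes, -0.19 (MCF-10A EV 1 left out) to 0.63 (MDA-MB-231 EV 3 left out) for male-biased genes, -0.04 (MDA-MB-231 EV 1 left out) to 0.18 (MCF-10A EV 2 left out) for fatty acid and triglyceride synthesis and -0.13 (MDA-MB-231 EV 1 left out) to 0.46 (MCF-10A EV 1 left out) for NRF2 targets. They were -0.17 (MDA-MB-231 EV 1 left out) to 0.55 (MDA-MB-231 EV 3 left out) for the unfolded protein response, -0.27 (MCF-10A EV 2 left out) to 0.53 (MCF-10A EV 1 left out) for immediate early genes, -0.18 (MDA-MB-231 EV 2 left out) to 0.32 (MDA-MB-231 EV 3 left out) for the nuclear respiratory chain and 0.00 (MDA-MB-231 EV 3 left out) to 0.11 (MDA-MB-231 EV 1 left out) for ribosomal proteins. They were -0.21 (MDA-MB-231 EV 1 left out) to 0.23 (MCF-10A EV 1 left out) for extracellular matrix, -0.21 (MDA-MB-231 EV 1 left out) to 0.55 (MDA-MB-231 EV 3 left out) for secreted hepatocyte proteins and -0.48 (MDA-MB-231 EV 3 left out) to 0.27 (MDA-MB-231 EV 1 left out) for mitochondrially encoded genes. The cell cycle median ran from -0.51 (MCF-10A EV 2 left out) to 0.24 (MCF-10A EV 1 left out), and MCF-10A EV 1 was the highest EV library for 11 of its 13 genes. Erythroid markers ran from -1.26 (MCF-10A EV 3 left out) to 0.74 (MCF-10A EV 1 left out), cholangiocyte markers from -0.73 (MCF-10A EV 1 left out) to 0.02 (MCF-10A EV 2 left out) and histones from -0.76 (MDA-MB-231 EV 2 left out) to -0.02 (MDA-MB-231 EV 1 left out). Under 1 of the 4 other scalings the side relative to all genes was the opposite for NRF2 targets, the unfolded protein response, ribosomal proteins, secreted hepatocyte proteins and hepatocyte markers. No member of these lists passed.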

How the data were processed

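RNA-seq of mouse liver gave 1 table for 9 libraries, prepared with a TruSeq kit per the labels. Its values are TPM, a length-normalised abundance, as deposited by the authors. HISAT2, StringTie, RSEM and the GRCm39 build are named in the submitters' processing notes, and versions and gene release are not given in the sources used here. TPM hold no read depth, so no counting error could be given. Names of all 9 columns matched 1 sample each, and 0 columns stayed unmapped.

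Features with Ensembl mouse identifiers above 0 in at least 1 library of each EV group were rescaled to 1000000 per library, and those with a mean of at least 1 over the 6 EV libraries were tested. The test was limma 3.58.1 (R 4.3.3) on log2(TPM + 1) with a trend in the prior variance, MDA-MB-231 EV minus MCF-10A EV, with p-values adjusted by Benjamini-Hochberg over the 12697 genes and a threshold of 0.05. Differences are on this scale, which understates changes of low genes. Sums of markers were compared by exact two-sided permutation tests (scipy 1.17.1).

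Same-numbered libraries of the 2 EV groups deviated together from their group means (Pearson r of 0.35, 0.11 and 0.46 across genes for numbers 1 to 3). Between different numbers r ran from -0.36 to 0.13, the highest being MCF-10A EV 1 with MDA-MB-231 EV 2, above the 0.11 of number 2. The pairing comes from the data, as the labels do not state what a number shares, and a fit with the replicate number as a block was run beside the unpaired one.

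Genes named in the text were called genes with a symbol that is not predicted or a pseudogene, the 12 higher and 12 lower genes with the smallest p, such a symbol, groups that did not overlap and a mean of at least 5 in the higher group, 11 sterol genes, and, from each list, at most 3 members ranked by p. Further list members, copies and neighbours were named after their values were seen. The comparison, the 41 gene lists and these rules were chosen with earlier results of these data known. Some genes and a sequence are not reported here. Alternatives were other pseudocounts, filters, scalings and variance models, all 9 libraries in the fit, the block and leaving out each library. Leaving out both MCF-10A EV 1 and MDA-MB-231 EV 3 was added after seeing the data. Gene places, coding sequences and shared 31-base words are from GENCODE M21 (GRCm38), and the microRNA is from RefSeq (GRCm38.p6). Both differ from the build of the table and were joined to it by gene name or identifier only, and no coordinates were converted.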

Additional observations from a re-analysis of the deposited data

Results flagged for a closer look

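Loci assembled by the authors from reads, which enter no comparison above, held 5.70% of TPM in MDA-MB-231 EV 3. This was above the PBS libraries, of which the highest held 3.02%. The other MDA-MB-231 EV libraries held 1.26% and 1.21%, and these loci are listed at 0 in all 3 MCF-10A EV libraries.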

How the results depend on the processing

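The count of called genes, 1 higher and 0 lower, moved under several settings. It was 1 higher and 1 lower, the latter Gli1, with a pseudocount of 0.5, equal medians, quantile normalization, no trend in the prior variance or a robust prior variance. With a pseudocount of 0.1 it was 2 higher and 1 lower, with array weights 5 and 5, and with all 9 libraries in the fit 3 and 2. It was 0 and 0 with the replicate block, without a filter on the mean and when only genes above 0 in all 6 libraries were kept, a filter that leaves Tuba5-ps out. Leaving out 1 library gave 0 to 1 called higher and 0 lower, and 640 to 2388 genes higher and 385 to 1149 lower without overlap, the latter in part because 2 libraries overlap less often than 3. Without a filter 470 genes were lower without overlap. Without MCF-10A EV 1 and MDA-MB-231 EV 3 together, 56 of 11901 genes were called higher and 42 lower. Without overlap 3814 were higher and 2005 lower, which likewise is in part because 2 libraries overlap less often than 3. The replicate block changed no call other than that of Tuba5-ps.

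Among the named genes, log2 differences changed sign only for genes whose groups overlapped. Groups that do not overlap leave little room for another sign except under other scalings, so this shows little about them. Abca1 was at -0.033 with equal medians and at -0.032 after quantile normalization. With array weights the values were 0.56 for Insig1, 0.41 for Sqle, 0.075 for Atf3, 0.44 for Hba-a1 and 1.16 for Hba-a2. Without the 2 libraries together they were 0.20 for Insig1, 0.48 for Sqle, 0.19 for Cyp7a1, 0.10 for Cxcl9, 0.14 for Calr, 0.087 for Cdk1, -0.089 for Fah, 0.030 for Cd74, 0.63 for Hba-a1 and 1.35 for Hba-a2. When 1 library was left out, values ran from -0.80 to 0.63 for Insig1, -0.54 to 0.41 for Sqle, -0.79 to 0.52 for Cyp7a1, -0.35 to 0.51 for Abca1, -0.88 to 0.39 for Srebf1, -0.88 to 0.35 for Atf3, -0.020 to 1.79 for Cyp2e1, -0.12 to 0.99 for Dusp1, -1.48 to 0.26 for Hba-a1 and -1.01 to 0.74 for Hba-a2. The cause of these shifts was not tested. With TPM alone, the number of reads behind low values is unknown.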

Other observations

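Genes listed at 0 in 1 EV group could not enter the comparison and are given here as deposited TPM. With a mean of at least 5 TPM in the other group, 92 genes are listed at 0 in all 3 MCF-10A EV libraries. Of these, 29 are above 0 in MDA-MB-231 EV 1, 2 and 3, and 25 of the 29 in all 3 PBS libraries too. The mitochondrial gene mt-Co2, a subunit of cytochrome c oxidase, is at 681, 271 and 341 TPM in MDA-MB-231 EV 1 to 3 and at 401, 202 and 69.1 TPM in PBS 1 to 3. Unc5d, a netrin receptor, is at 9.69, 2.34 and 95.8 TPM in MDA-MB-231 EV 1 to 3. These names were chosen after their values were seen.

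In the other direction, 37 genes are listed at 0 in MDA-MB-231 EV 1, 2 and 3, of which 9 are above 0 in all 3 MCF-10A EV libraries and 7 of the 9 are at 0 in all 3 PBS libraries. Cd28, a costimulatory receptor of T cells, is at 15.5, 43.2 and 51 TPM in MCF-10A EV 1 to 3, in a strain without mature T cells. Gtsf2, a relative of a factor that protects germ cells from transposons, is at 16.8, 6.28 and 7.74 TPM, and the small nucleolar RNA Snora73b at 22.9, 9.19 and 10.5 TPM. Cd28 and Gtsf2 are among the 7, but Snora73b is at 2.4, 11.2 and 1.86 TPM in PBS 1 to 3. Why a gene is listed at 0 was not tested, for mt-Co2 or for the others, so no fold is given.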
